A study of Arabidopsis thaliana with 24 samples.

Results

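Sucrose synthases SUS1 to SUS6 of Arabidopsis thaliana were followed across 4 genotypes and 2 oxygen levels. The 6 genes were taken by their TAIR locus numbers. All 6 were found among the 23929 genes of the deposited tables, and all 6 were among the 20110 genes that passed the filter on low counts. RNA was sequenced from whole seedlings of 3 mutant lines, labelled vq1, vq10 and vq1vq10, and of wild type Col-0 (Col). Each genotype was sampled under hypoxia, which was 1% oxygen for 4 h, and under normoxia, which was 21% oxygen for the same time. There were 3 libraries in each of the 8 groups. All seedlings had grown for 14 days on medium with 1% sucrose, in cycles of 16 h light and 8 h dark, and both treatments were given in dim light from 4 h after lights on. All groups were therefore supplied with sugar from outside. The vq lines are called hypermorphic in the title of the series and are named for the VQ1 and VQ10 genes, which encode proteins with the short VQ motif that bind transcription factors. Neither their alleles nor the number of seedlings in a library is stated in the labels, nor is it said there that replicates came from separate cultures, so p-values measure the spread between these libraries.

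Sucrose synthase splits sucrose with UDP into UDP-glucose and fructose, in a reaction that can run in both directions. Invertases, the other route of sucrose breakdown, hydrolyse sucrose to glucose and fructose and keep none of the energy of the bond. Plants short of oxygen make ATP mainly by glycolysis and fermentation, and sucrose synthase genes are well known to be induced in them. In Arabidopsis SUS1 and SUS4 form a close pair of the family, SUS2 and SUS3 are known for their activity in seeds, SUS3 also in guard cells, and SUS5 and SUS6 act in phloem sieve elements, where they supply callose synthesis.

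The 6 genes lie apart in the genome. In the TAIR10.1 annotation SUS1 (AT5G20830) spans chr5:7050217-7055398 on the minus strand and SUS4 (AT3G43190) spans chr3:15179010-15184105 on the minus strand. SUS3 (AT4G02280) is at chr4:994726-998991 on the plus strand and SUS2 (AT5G49190) is at chr5:19943181-19947588 on the minus strand. SUS5 (AT5G37180) lies at chr5:14718141-14723139 on the plus strand. SUS6 (AT1G73370), at chr1:27584364-27588978 on the minus strand, lies 1918142 bases from VQ10, measured between the lowest coordinates of both genes. The coding sequences measured 2424 to 2430 bases in SUS1 to SUS4, 2514 bases in SUS5 and 2829 bases in SUS6. SUS1 and SUS4 had 84.3% of aligned coding bases in common, SUS2 and SUS3 had 70.7%, and SUS5 and SUS6 had 67.3%. The longest run of bases that the SUS1 and SUS4 transcripts share was 38, and no pair of the 6 shared a run of 50. The deposited counts of all 6 genes were whole numbers in all 24 libraries.

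The stretches before SUS1 and SUS4 are shown because these were the 2 members with the largest changes under hypoxia. Each holds 250 bases of TAIR10.1 up to the annotated start of the gene, read along the gene's own strand. Capitals mark AAACCA, the first letters of the hypoxia-responsive promoter element of Arabidopsis, or its reverse complement TGGTTT.
SUS1, chr5:7055399-7055648, minus strand: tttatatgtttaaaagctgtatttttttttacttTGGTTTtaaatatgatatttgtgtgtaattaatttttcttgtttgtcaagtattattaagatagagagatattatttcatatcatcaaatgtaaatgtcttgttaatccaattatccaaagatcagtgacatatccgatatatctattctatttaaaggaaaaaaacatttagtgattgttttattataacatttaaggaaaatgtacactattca
SUS4, chr3:15184106-15184355, minus strand: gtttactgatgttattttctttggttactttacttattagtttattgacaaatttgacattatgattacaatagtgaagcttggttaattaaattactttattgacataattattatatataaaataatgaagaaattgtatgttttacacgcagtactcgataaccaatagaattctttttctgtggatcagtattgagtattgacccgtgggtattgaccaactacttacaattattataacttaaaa
The SUS1 stretch held 1 match, on the opposite strand, with its first base at position -216 from the start. No match lay in the 250 bases before SUS4. With the first 50 bases of the transcribed part added, a further match was found in SUS4 at position 44 and 2 in SUS5 at positions 27 and 37, and SUS2 had 1 before its start, at position -174. These matches are shown in windows of 30 bases, since they fell in members that differed in their response.
SUS4, chr3:15184056-15184085, minus strand: caaagcataattagtattaaagaAAACCAa
SUS5, chr5:14718160-14718189, plus strand: cattacgAAACCAatcaAAACCAacgcgaa
SUS2, chr5:19947745-19947774, minus strand: gatttaattttgTGGTTTatatgttgagtt
SUS3 and SUS6 held no AAACCA in this window. Of 23928 promoters of the same length, 32.1% had AAACCA on either strand, so its presence in 4 of 6 members describes the letters only. The motif ACCANNNGC, which overlaps AAACCA in that element, was in 5.45% of all promoters and CACGTG, the G-box, which reads the same on both strands, in 8.38%. Neither was found in the window of any member.

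Libraries held 21150032 to 22645177 reads assigned to genes. The first principal component of all genes carried 61.2% of the variance, and no pair of replicates agreed within sampling noise (smallest chi-square per degree of freedom 6.15). The labels were checked on the named genes. VQ10 was higher in libraries labelled vq10 (2.22 ± 0.23 CPM) and vq1vq10 (1.86 ± 0.43) than in Col (0.37 ± 0.19; SD, n = 3 each, normoxia), by 2.56 and 2.30 on the log2 scale. VQ1 in libraries labelled vq1 (3.60 ± 0.59 CPM) was not called against Col (4.2 ± 1.2 CPM; log2 difference -0.22, adjusted p = 0.882). Below, vq1 and vq1vq10 therefore mean the libraries labelled so. Leaf markers for Rubisco, its activase and chlorophyll-binding proteins summed to 71353.7 TPM or more in every library, and all 4 root markers and all 7 phloem markers had reads in all groups. Of 5 seed storage markers, 1 had no reads in 6 of the 8 groups, and their summed level was 0.26 to 23.7 TPM.

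Under low oxygen the transcripts of 3 sucrose synthase genes rose in all 4 genotypes. SUS4 and SUS1 rose most, SUS3 rose moderately, and SUS5 was the one member that was lower. In Col 3 members were called higher and 1 lower, where 21.9% of all genes tested were called higher and 19.9% lower. In each mutant line the same 3 members were called higher and none lower, beside 19.1% of all genes called higher and 16.5% lower in vq1, 19.5% and 18.2% in vq10, and 17.7% and 15.7% in vq1vq10. Called means an adjusted p under 0.05 in edgeR's quasi-likelihood test, with Benjamini-Hochberg adjustment over all 20110 genes. Averaged over the 4 genotypes 3 members were again called higher, against 31.7% of all genes, and 1 lower, against 33.1%. The median log2 change of the 6 members in Col was 0.75, beside -0.01 over all genes tested.

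SUS1, in the pair of genes most often named in low-oxygen responses, had 153.01, 142.72 and 198.97 TPM in hypoxic vq1 libraries, against 7.85, 9.83 and 11.18 TPM in normoxic ones. In vq10 it had 161.25, 146.22 and 172.60 TPM under hypoxia, against 11.22, 12.83 and 12.82 TPM under normoxia. The hypoxic libraries of vq1vq10 were the highest group by mean and the closest to each other, at 221.81, 217.50 and 208.76 TPM, against 13.03, 12.52 and 12.62 TPM in the normoxic ones. Col libraries were the most scattered, with 174.17, 105.10 and 228.32 TPM under hypoxia against 11.39, 20.86 and 12.63 TPM under normoxia. The lowest hypoxic library of any genotype stood far above the highest normoxic one, so the groups did not overlap. On the log2 scale SUS1 rose by 4.31 ± 0.21 in vq1, 3.98 ± 0.21 in vq10, 4.23 ± 0.21 in vq1vq10 and 3.76 ± 0.21 in Col (SE; n = 3 libraries a group). The Col value is a 13.6-fold rise (adjusted p = 3.72e-12), and SUS1 ranked 69 of 20110 genes by change in Col.

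SUS4, the close paralogue of SUS1, started lower and changed by the larger factor. Its levels in vq1 were 101.16, 90.29 and 129.86 TPM under hypoxia, against 1.33, 1.94 and 1.63 TPM under normoxia. In vq10 they were 105.11, 83.39 and 99.91 TPM under hypoxia, against 2.27, 2.15 and 1.90 TPM under normoxia. The vq1vq10 libraries had 150.16, 148.43 and 187.86 TPM under hypoxia, against 2.54, 3.13 and 3.29 TPM under normoxia. As for SUS1, vq1vq10 was the highest hypoxic group by its mean and Col the most scattered one. In Col SUS4 had 86.52, 54.57 and 179.23 TPM under hypoxia, against 3.22, 6.28 and 1.79 TPM under normoxia. No hypoxic library overlapped a normoxic one. The log2 changes were 6.23 ± 0.38 in vq1, 5.77 ± 0.37 in vq10, 5.91 ± 0.36 in vq1vq10 and 5.08 ± 0.35 in Col. In Col this is a 33.9-fold rise (adjusted p = 1.34e-10), the change ranked 32 of 20110 genes, and leaving out 1 library gave log2 values between 4.57 and 5.62.

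SUS3, known from seeds and guard cells, was the third member to rise. It had 11.91, 9.39 and 7.68 TPM in hypoxic vq1 libraries, against 5.10, 3.45 and 3.98 TPM in normoxic ones. In Col it had 9.27, 4.44 and 9.08 TPM under hypoxia, against 3.61, 3.61 and 3.24 TPM under normoxia. The second hypoxic Col library was again the lowest, yet remained above all normoxic Col libraries. Over the 12 libraries of each condition SUS3 had a lowest, median and highest level of 4.44, 8.10 and 11.91 TPM under hypoxia, against 3.0, 3.63 and 5.10 TPM under normoxia. The rise was 1.38 ± 0.22 in vq1, 1.03 ± 0.22 in vq10, 1.17 ± 0.22 in vq1vq10 and 1.36 ± 0.22 in Col on the log2 scale, or 2.05- to 2.61-fold. For SUS1, SUS4 and SUS3 normalised counts did not overlap between hypoxic and normoxic libraries in any genotype. The share of all genes that were higher without overlap was 25.5% in vq1, 23.7% in vq10, 24.4% in vq1vq10 and 23.3% in Col.

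**Figure D1:**
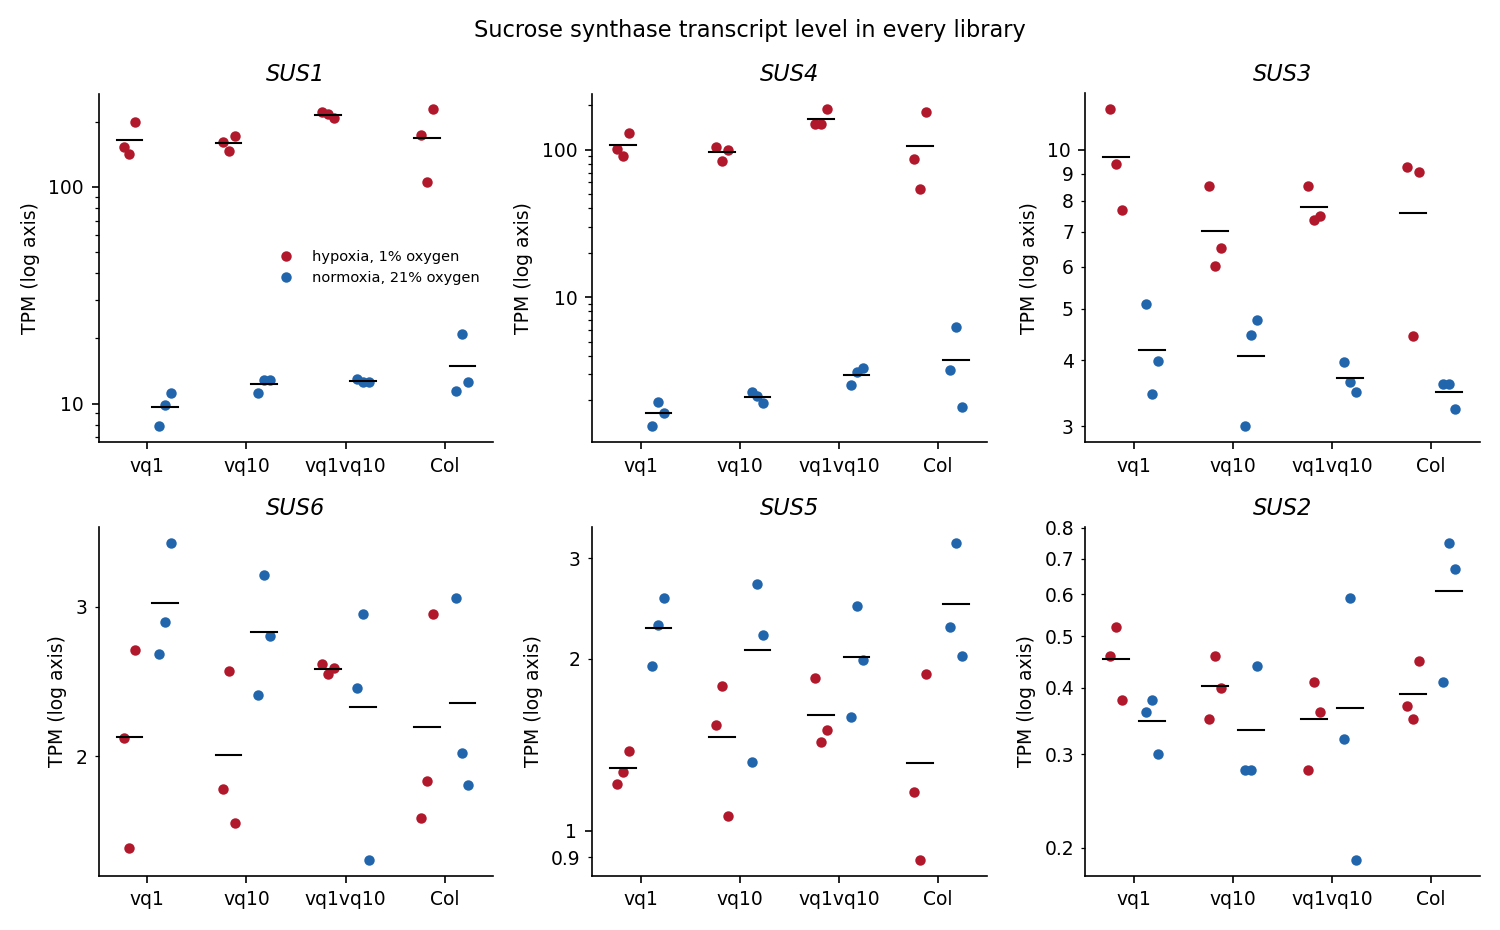
Level of each sucrose synthase gene in every library in TPM (log axes with a different range in each panel), for hypoxic libraries (red) and normoxic libraries (blue) of each genotype; horizontal lines are means of 3 libraries. SUS1, SUS4 and SUS3 separate by oxygen in all 4 genotypes, while most panels of SUS6, SUS5 and SUS2 show overlapping points within about 0.19 to 3.57 TPM.

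The phloem genes SUS5 and SUS6 did not rise. SUS5 had 1.21, 1.27 and 1.38 TPM in hypoxic vq1 libraries, against 1.94, 2.29 and 2.55 TPM in normoxic ones. In Col SUS5 had 1.17, 0.89 and 1.88 TPM under hypoxia, against 2.27, 3.19 and 2.02 TPM under normoxia. TPM did not overlap between conditions in vq1 and Col, though in Col the normalised counts did. Without overlap in normalised counts, 24.1% of all genes were lower in hypoxic vq1. The other mutant lines overlapped in TPM, with 1.53, 1.79 and 1.06 TPM in hypoxic vq10 against 1.32, 2.70 and 2.20 TPM in normoxic vq10, and 1.85, 1.43 and 1.5 TPM in hypoxic vq1vq10 against 1.58, 2.47 and 1.99 TPM in normoxic vq1vq10. SUS5 fell by 0.45 ± 0.12 on the log2 scale over the 4 genotypes (adjusted p = 0.00278). Within genotypes SUS5 passed in Col, where it fell by 0.61 ± 0.24 (adjusted p = 0.0497). The log2 value was -0.61 in vq1 (adjusted p = 0.0582), -0.39 in vq10 (0.223) and -0.19 in vq1vq10 (0.587). The Col call was lost without hypoxic Col replicate 1 (adjusted p = 0.131) or 2 (0.197) and without normoxic Col replicate 1 (0.0601) or 2 (0.220), with no filter on low counts (0.0525) and when the Col groups were fitted alone (0.0974). In vq1 SUS5 passed when its groups were fitted alone (0.0228) or scaled by library size only (0.0172). Its libraries held 37 to 125 reads of this gene.

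SUS6, which together with SUS5 is known from sieve elements, had 73 to 147 reads in hypoxic and 74 to 179 reads in normoxic libraries. Its levels ran from 1.56 to 2.94 TPM with a median of 2.30 TPM under hypoxia, and from 1.51 to 3.57 TPM with a median of 2.71 TPM under normoxia. The ranges overlapped. SUS6 was called in no genotype (log2 -0.40 in vq1, -0.24 in vq10, 0.21 in vq1vq10 and 0.13 in Col), and the interval of the averaged change ran from -0.32 to 0.18. SUS2, the other seed gene, was the lowest member in 24 of 24 libraries, with 0.28 to 0.52 TPM under hypoxia against 0.19 to 0.75 TPM under normoxia. It rested on 8 to 30 reads a library and was called in no genotype (log2 0.52 in vq1, 0.41 in vq10, -0.04 in vq1vq10 and -0.39 in Col). The 95% interval of its averaged change, -0.22 to 0.47, leaves out a rise of the size seen for SUS3. In vq10 alone the SUS2 interval, -0.30 to 1.12, includes the SUS3 value of 1.03. In vq1 its normalised counts were higher under hypoxia without overlap, as were those of 25.5% of all genes.

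**Figure D2:**
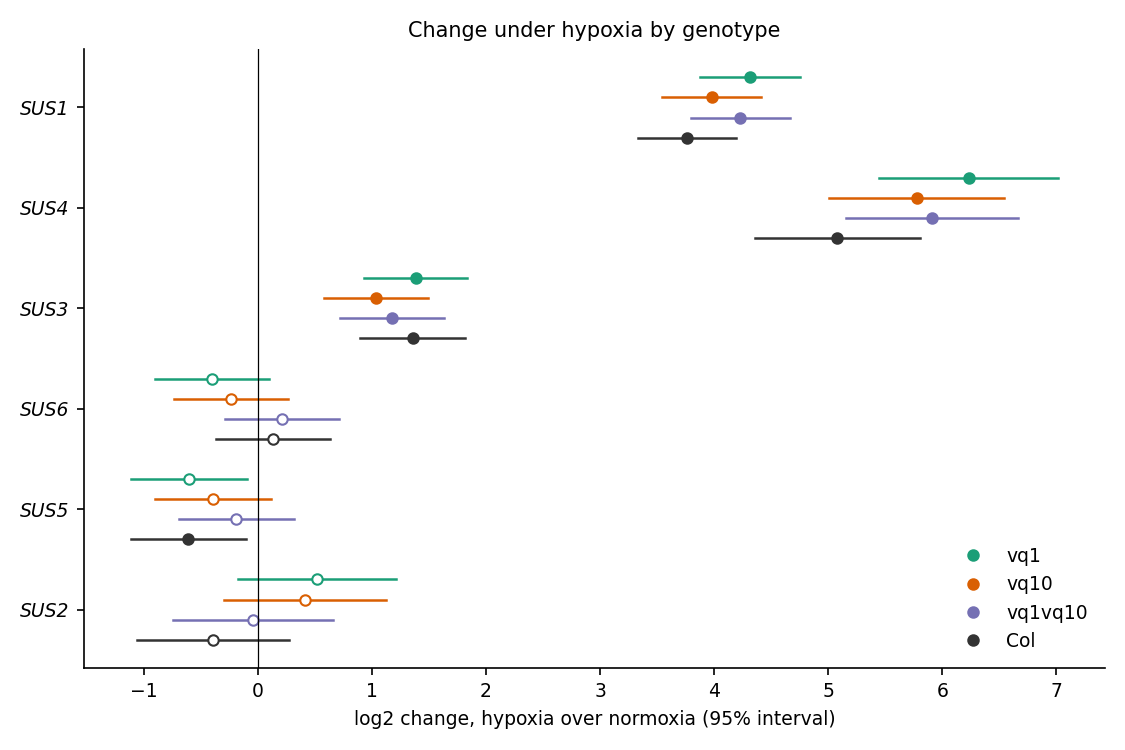
Fitted log2 change under hypoxia over normoxia for each gene and genotype, with 95% intervals; filled points were called at an adjusted p under 0.05. SUS1 and SUS4 lie between 3.76 and 6.23, SUS3 between 1.03 and 1.38, and the points of SUS6, SUS5 and SUS2 between -0.61 and 0.52.

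Of the close pairs of the family, SUS4 and SUS1 did not change by the same factor. The log2 ratio of SUS4 to SUS1, from TPM with 0.1 added, was higher in hypoxic than in normoxic libraries by 1.64 on average over the genotypes. It was -0.62 ± 0.03 in hypoxic and -2.49 ± 0.21 in normoxic vq1 libraries, and -0.77 ± 0.36 in hypoxic and -2.09 ± 0.58 in normoxic Col libraries (SD, n = 3). In all 4 genotypes the ratio did not overlap between conditions, with differences of 1.86 in vq1, 1.75 in vq10, 1.64 in vq1vq10 and 1.32 in Col. A two-sided permutation test with labels permuted within genotype gave p = 3e-05 (100000 resamples; 6e-05 adjusted over 3 ratios). A ratio without overlap in any genotype gives the lowest p this test can reach, apart from resampling error. The p therefore does not grade the size of the difference. SUS4 nevertheless stayed below SUS1 in 12 of 12 hypoxic and 12 of 12 normoxic libraries. The ratio of SUS3 to SUS2 was higher under hypoxia by 1.00 (permutation p = 4e-05; adjusted 6e-05), with overlap between conditions in vq10 alone. This ratio rests on SUS2 at 8 to 30 reads a library, and at 0.19 to 0.75 TPM beside the added 0.1. The ratio of SUS6 to SUS5 was higher under hypoxia by 0.38 (permutation p = 0.011, also after adjustment), with overlap in every genotype but Col. That last difference was -0.02 in vq10 and 0.81 in Col, and it did not pass without replicate 2 of every group (adjusted permutation p = 0.0924) or without replicate 3 (0.221).

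The summed level of the 6 genes rose together with the joint share of SUS1 and SUS4. The family summed to 285.5 ± 49.5 TPM in hypoxic and 21.1 ± 2.0 TPM in normoxic vq1 libraries, and to 267.1 ± 23.1 TPM in hypoxic and 23.7 ± 2.8 TPM in normoxic vq10 libraries. In vq1vq10 the sums were 390.5 ± 16.1 TPM under hypoxia and 24.1 ± 1.1 TPM under normoxia, and in Col 287.4 ± 127.9 TPM under hypoxia and 27.6 ± 7.9 TPM under normoxia (SD, n = 3 each). These are ratios of 13.6 in vq1, 11.3 in vq10, 16.2 in vq1vq10 and 10.4 in Col. The Col ratio lay between 7.97 and 12.6 when 1 library was left out. SUS1 and SUS4 made up 95.2 to 96.9% of the hypoxic sum, as group means. Under normoxia they made up 53.2% in vq1, 61.1% in vq10, 65.4% in vq1vq10 and 66.6% in Col. The SUS4 share rose from 7.76 to 37.4% in vq1 and from 9.03 to 35.9% in vq10. In vq1vq10 it rose from 12.4 to 41.4% and in Col from 12.9 to 35.6%. The SUS1 share rose less. Its means were 52.9% in normoxic and 55.4% in hypoxic vq1vq10, and 53.7 and 60.2% in Col, with overlapping libraries in both genotypes. In vq1 and vq10 the SUS1 shares did not overlap. The 4 other genes together had 13.5 ± 1.9 TPM in hypoxic and 9.81 ± 0.73 TPM in normoxic vq1 libraries, and 11.5 ± 3.5 TPM in hypoxic and 8.90 ± 0.98 TPM in normoxic Col libraries. As TPM are scaled to one total in every library, these sums are relative to all other transcripts.

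**Figure D3:**
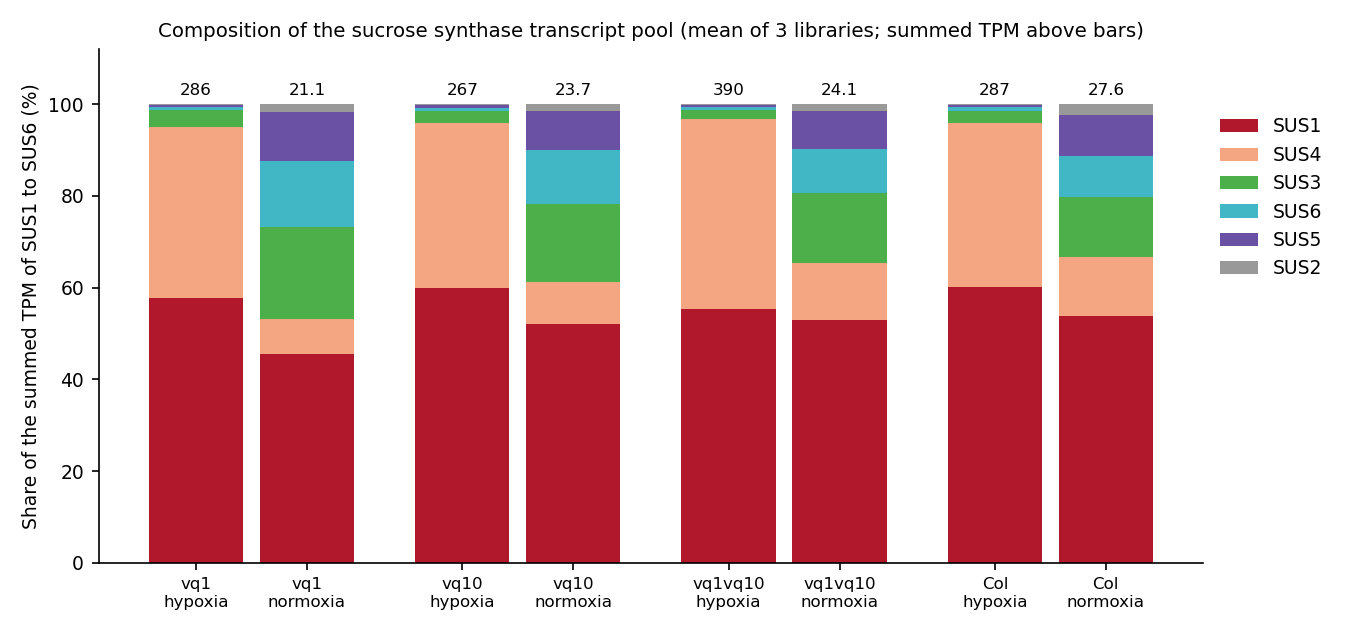
Share of each gene in the summed TPM of SUS1 to SUS6, as the mean of 3 libraries, with the mean summed TPM written above each bar. SUS1 and SUS4 fill over 95% of every hypoxic bar, and SUS3, SUS6 and SUS5 are visible mainly in the normoxic bars, where the sums were 21.1 to 27.6 TPM.

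The order of the members by TPM, which is a level per transcript length, was the same in the 4 hypoxic groups, from SUS1 through SUS4, SUS3, SUS6 and SUS5 to SUS2. In hypoxic Col the ranges of SUS1 and SUS4 overlapped, as did those of SUS6 and SUS5 in hypoxic Col and vq10. All other neighbours in that order were separate in the hypoxic groups. Under normoxia SUS1 was the highest member in 12 of 12 libraries. SUS3 came next in all 3 mutant lines, with 4.18 ± 0.84 TPM in vq1, 4.08 ± 0.95 TPM in vq10 and 3.70 ± 0.25 TPM in vq1vq10. In normoxic Col SUS4 (3.76 ± 2.29 TPM) stood before SUS3 (3.49 ± 0.21 TPM), and their ranges overlapped. SUS4 was the second-lowest member in normoxic vq1 (1.63 ± 0.31 TPM), where its range overlapped at 1.94 TPM with that of SUS5.

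No sucrose synthase gene was called in any comparison of a mutant line with Col, by edgeR or by DESeq2. Under hypoxia 0 of 6 were called in vq1, vq10 and vq1vq10, where 0.0845%, 0.0646% and 0.0845% of all genes were called. The unadjusted p was under 0.05 for 0 of 6 members in each of these 3 comparisons, where 1100, 1709 and 1895 of the 20110 genes tested reached it. SUS4 in vq1vq10 was the farthest from Col, at 162.2 ± 22.3 TPM in hypoxic vq1vq10 and 106.8 ± 64.8 TPM in hypoxic Col, a log2 difference of 0.51 (95% interval -0.08 to 1.09; adjusted p = 0.591). It was 1.00 without hypoxic Col replicate 3 (adjusted p = 0.0534) and 0.22 without hypoxic Col replicate 2 (0.900). SUS1 had 216.0 ± 6.6 TPM in hypoxic vq1vq10 and 169.2 ± 61.8 TPM in hypoxic Col (log2 0.23, -0.15 to 0.61). For SUS1 in vq1 and vq10 the intervals ran from -0.44 to 0.33, and for SUS4 from -0.70 to 0.59. SUS6, on the chromosome of both VQ1 and VQ10, differed from Col under hypoxia by -0.09 in vq1, -0.09 in vq10 and 0.06 in vq1vq10.

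Under normoxia 0 of 6 members were called in vq1, vq10 and vq1vq10, beside 0.0796%, 0.0597% and 0.0646% of all genes. An unadjusted p under 0.05 was reached by 3 members in vq1, by 2 in vq10 and by 0 in vq1vq10, beside 1451, 713 and 869 of the 20110 genes tested. SUS4 averaged 1.63 ± 0.31 TPM in normoxic vq1 and 3.76 ± 2.29 TPM in normoxic Col (log2 -1.14 ± 0.38, unadjusted p = 0.00602, adjusted p = 0.529). SUS1 averaged 9.62 ± 1.67 TPM in normoxic vq1 and 14.96 ± 5.15 TPM in normoxic Col (log2 -0.60 ± 0.19, adjusted p = 0.515), and the 3 vq1 libraries were each below the 3 Col libraries, as were 6.67% of all genes. SUS2, with 11 to 30 reads a library, had a log2 difference of -0.71 in vq1 and -0.84 in vq10, and neither passed. Its vq1 libraries were also each below the Col libraries, within the same 6.67% of all genes. Normoxic Col replicate 2 was the highest of its group in SUS1, SUS4, SUS5 and SUS2. The fermentation genes ADH1 and PDC1 were also highest there, ADH1 at 30.33 TPM beside 15.51 and 6.74 TPM and PDC1 at 8.04 TPM beside 5.56 and 2.96 TPM. Without that library the difference of vq1 from Col was -0.59 for SUS4 and -0.33 for SUS1. The part of this library's state in the differences was not tested further.

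No member was called for a response to hypoxia that differed between a mutant line and Col. The test of the difference in edgeR called 0 of 6 members and 0% of all genes in each line, and DESeq2 also called 0 members. At an unadjusted p under 0.05 it held 682 genes in vq1, including 1 member. It held 1654 genes in vq10 and 1638 in vq1vq10, with 0 members in each. The member in vq1 was SUS4, with a response larger by 1.15 on the log2 scale (95% interval 0.17 to 2.13; unadjusted p = 0.0234; adjusted p = 1.00). It was 0.60 without normoxic Col replicate 2 and 1.64 without hypoxic Col replicate 3. The responses of SUS1 were larger than in Col by 0.55 in vq1, 0.22 in vq10 and 0.47 in vq1vq10, with intervals that all included 0. The 3 lines share the Col libraries, so these values are not independent of each other.

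**Figure D4:**
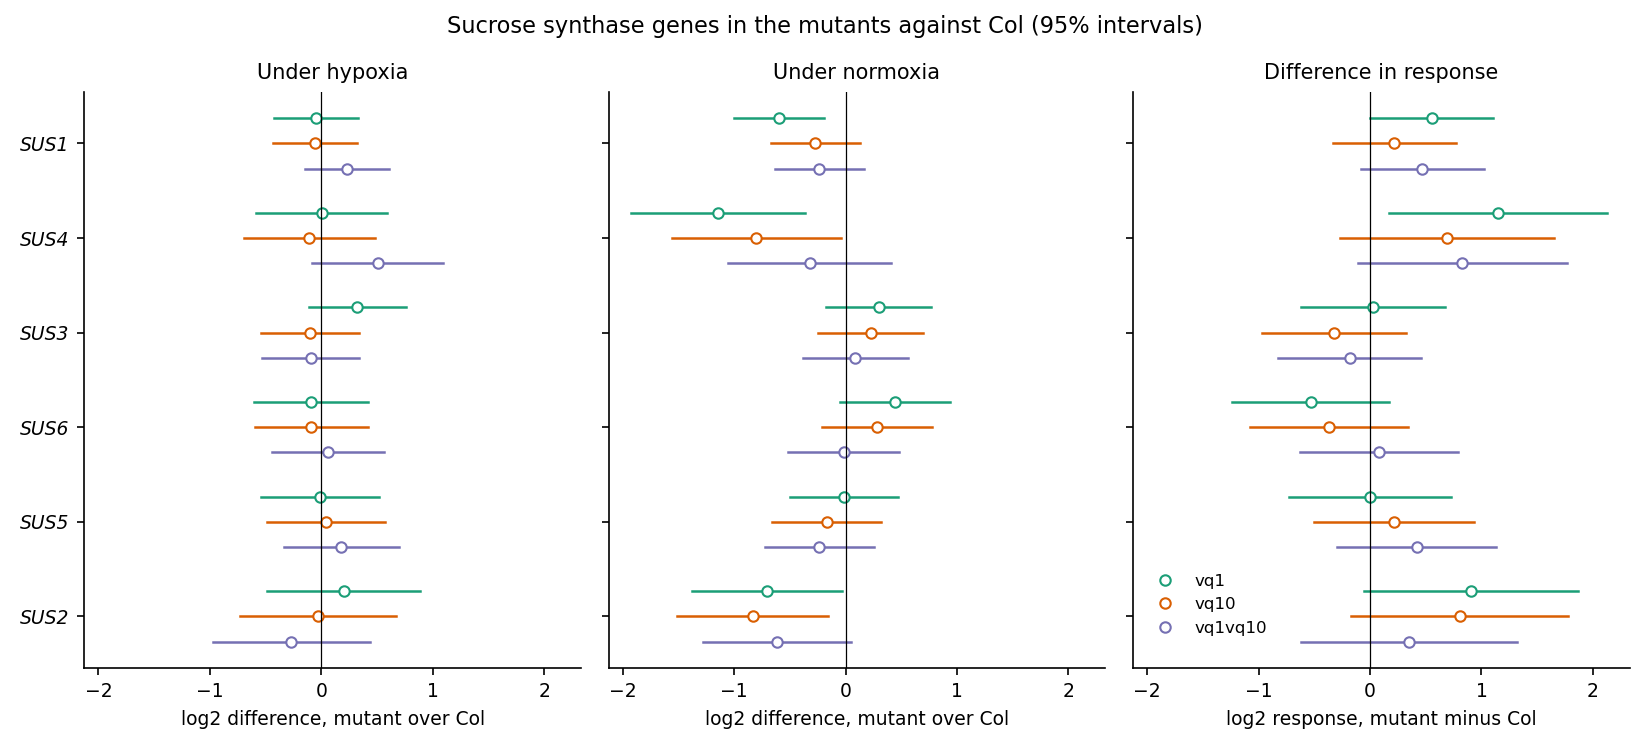
Log2 difference of each mutant line from Col under hypoxia (left) and under normoxia (middle), and the log2 response to hypoxia in the mutant minus that in Col (right), with 95% intervals; open points were not called. Most intervals include 0, and the response of SUS4 in vq1, at 1.15, is one whose interval does not.

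The vq1vq10 line was also set against each single mutant. No member was called by edgeR or DESeq2 against vq1 under hypoxia or normoxia, where edgeR called 0.114% and 0.119% of all genes, or against vq10, where it called 0% in either condition. The unadjusted p was under 0.05 for SUS4 against vq1 under normoxia and against vq10 under hypoxia, and for no other member. Of all 20110 genes, 876 reached it in the first of these comparisons and 1852 in the second. Under hypoxia SUS4 was at 162.2 ± 22.3 TPM in hypoxic vq1vq10 and 96.1 ± 11.3 TPM in hypoxic vq10 (log2 difference 0.61, 95% interval 0.03 to 1.2; unadjusted p = 0.0416; adjusted p = 0.527). Its libraries did not overlap between these groups, nor did those of SUS1, at 208.76 to 221.81 TPM in vq1vq10 and 146.22 to 172.60 TPM in vq10. Of all genes 7.64% were higher in vq1vq10 without overlap in this comparison. SUS4 was also higher without overlap in normalised counts against vq1 under both conditions and against vq10 under normoxia. SUS1 was so against vq1 under normoxia, and SUS2 was lower without overlap against vq1 under hypoxia. The share of all genes was not counted for these comparisons, and no member was called in them, so no difference is read from these separations. Where the share was counted between genotypes, it was the 7.64% above and 6.67% for genes lower in normoxic vq1 than in normoxic Col. Under hypoxia ADH1 had 915.96 to 1134.59 TPM in vq1vq10 and 745.91 to 922.67 TPM in vq10, with overlap. PDC1 had 326.34 to 364.29 TPM in hypoxic vq1vq10 and 238.2 to 296.96 TPM in hypoxic vq10, without overlap. Higher levels in hypoxic vq1vq10 were thus not particular to SUS1 and SUS4.

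Scatter within hypoxic Col ran in parallel for SUS1, SUS4 and fermentation genes. Hypoxic Col replicate 3 was the highest and replicate 2 the lowest in SUS1 and SUS4. ADH1, the alcohol dehydrogenase of ethanol fermentation, had 679.74, 644.47 and 1028.79 TPM in hypoxic Col replicates 1, 2 and 3. PDC1, the pyruvate decarboxylase before it, had 233.60, 176.48 and 354.52 TPM. The summed level of the root markers was 142.4 to 284.5 TPM in hypoxic and 266.7 to 311.8 TPM in normoxic Col libraries, with overlap. In the mutant lines these sums did not overlap. They were 183.5 to 219.4 TPM in hypoxic and 250.5 to 317.8 TPM in normoxic vq1. In vq10 they were 151.9 to 169.8 TPM under hypoxia and 255.8 to 289.1 TPM under normoxia. In vq1vq10 they were 180.2 to 203.0 TPM under hypoxia and 258.6 to 292.6 TPM under normoxia. Of the 4 root markers 2 fell in Col, the root hair genes EXPA7 (log2 -3.84) and COBL9 (log2 -2.44). The phosphate transporter gene PHT1;1 and the nitrate transporter gene NPF7.3 were not called there. Root markers called lower were 2 in vq1, 3 in vq10 and 3 in vq1vq10. Phloem markers summed to 127.9 to 165.3 TPM in hypoxic and 139.7 to 148.8 TPM in normoxic Col libraries, with 2 of 7 called higher and 1 lower. Guard cell markers summed to 142.0 to 188.9 TPM in hypoxic and 95.4 to 122.8 TPM in normoxic Col libraries, with 1 of 5 called higher, GC1, and 1 lower, KAT1. GC1 alone carried the higher sum, at 142.0 ± 23.7 TPM in hypoxic and 60.9 ± 8.9 TPM in normoxic Col, while the other 4 markers had lower means under hypoxia and the median log2 change of the 5 was -0.38. In whole seedlings fewer cells of a type and less RNA per cell cannot be told apart, and the part of these markers in the SUS3 and SUS5 values was not tested.

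Genes on either side of sucrose synthase in sucrose metabolism were counted by list. Over 10 lists with 53 genes tested, 15 rose and 12 fell in hypoxic Col. These are 28.3% and 22.6% of the genes tested in the lists, beside 21.9% and 19.9% of all genes. Of the breakdown routes, neutral invertases of the cytosol and organelles had 2 of 8 tested genes higher, A/N-InvE by 0.55 and A/N-InvB by 0.51, and the main cytosolic enzyme CINV1 was at 0.21 without a call. The vacuolar invertase gene AT1G12240 rose by 1.58, 1 of 2 tested. Genes named as cell wall invertases, whose activity on sucrose was not examined, had 0 of 4 higher and 1 lower, CWINV3, which fell by 0.47. They had 0 higher and 1 lower in vq1, 1 and 1 in vq10, and 1 and 0 in vq1vq10. In Col the invertase inhibitor gene C/VIF1 rose by 2.76, 1 of 2 tested.

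Enzymes that take up the products of sucrose synthase moved unevenly in hypoxic Col. UGP2, a UDP-glucose pyrophosphorylase that turns UDP-glucose into glucose 1-phosphate, rose by 2.11, to 110.0 ± 6.4 CPM in hypoxic Col, against 25.4 ± 2.1 CPM in normoxic Col. UGP3, its plastid relative, rose by 0.85 and the UDP-sugar pyrophosphorylase USP fell by 0.49, while UGP1 was not called (log2 -0.05). Of 4 fructokinases, which phosphorylate the fructose, AT2G31390 rose by 1.60 and AT3G59480 fell by 0.66. Of 5 hexokinases HXK2 rose by 1.04, while HXK3 fell by 1.37 and the glucose sensor HXK1 fell by 0.77. The rises of UGP2 and AT2G31390 were also called in each mutant line, at 1.90 and 2.11 in vq1, 1.93 and 2.02 in vq10, and 1.85 and 2.07 in vq1vq10.

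On the synthesis and transport side, sucrose phosphate synthases and phosphatases had 3 of 8 genes higher and 0 lower in hypoxic Col. These were SPS4F, which rose by 2.60, AT2G35840, listed as a sucrose phosphatase, by 1.09, and SPS2F by 0.83. Sucrose transporters had 3 of 9 higher and 3 lower in Col. They had 3 and 3 in vq1, 4 and 2 in vq10, and 0 and 2 in vq1vq10. Among the Col calls SWEET15, an exporter gene also known from senescing leaves, rose by 1.34. The proton symporter genes SUC1 (log2 -1.40) and SUC3 (log2 -0.79) fell there. Cellulose and phloem callose synthases, which use UDP-glucose, had 1 of 7 higher and 4 lower in Col. In each mutant line 2 were called lower, and 0 were higher in vq1, 1 in vq10 and 1 in vq1vq10. In Col CALS7, the callose synthase of sieve plates, fell by 0.58, and the primary wall genes CESA3 (log2 -0.57) and CESA1 (log2 -0.46) fell. No gene of these 10 lists was called between a mutant line and Col under either condition.

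**Figure D5:**
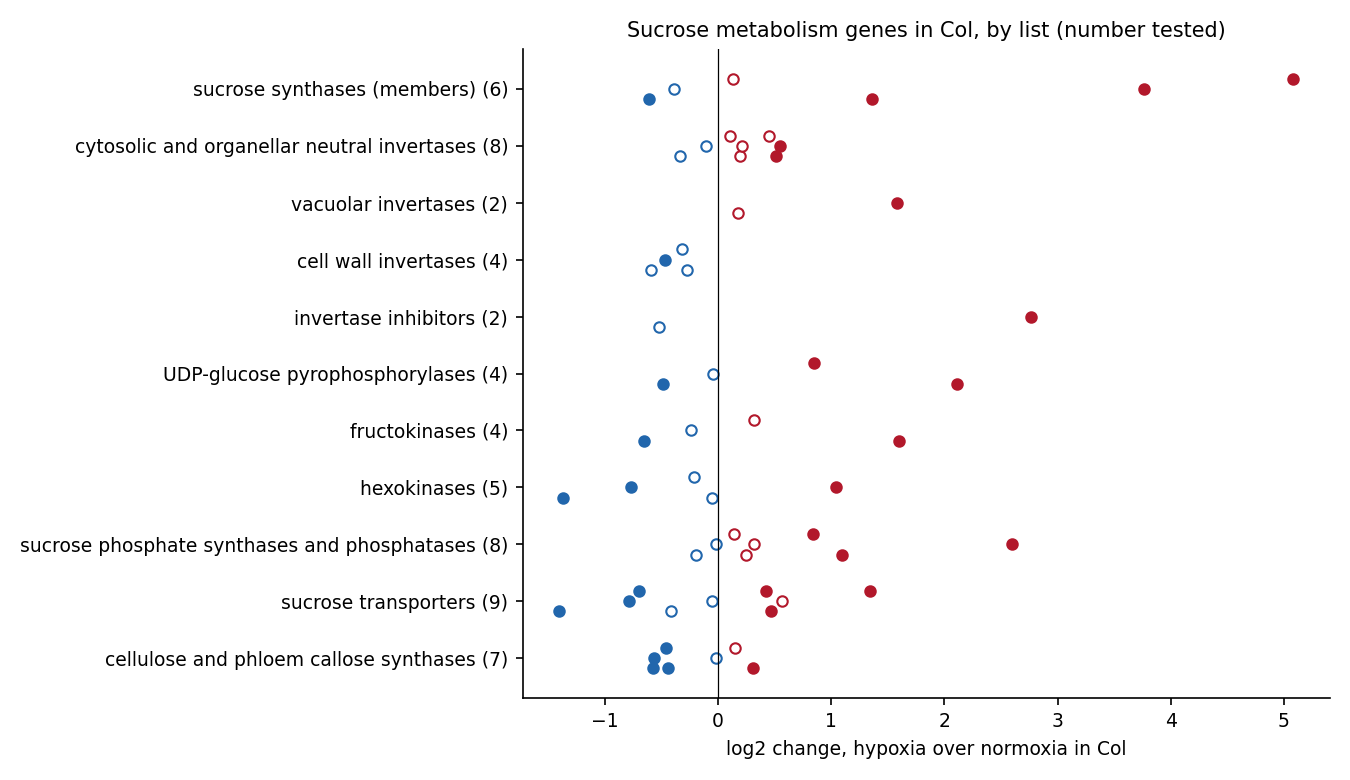
Fitted log2 change under hypoxia in Col for the genes of 11 lists of sucrose metabolism (number tested in brackets); red points are above 0, blue points below 0, and filled points were called. SUS4 at 5.08 and SUS1 at 3.76 lie to the right of every gene of the other lists, of which the invertase inhibitor C/VIF1 at 2.76 was the highest.

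Genes with the most similar pattern to a member were named by Pearson's r of log2 CPM over the 8 group means, as a description with no test. All points share the contrast of 4 hypoxic with 4 normoxic groups, so high values are common among genes that respond to oxygen. SUS1 was closest to the aquaporin gene RD28, to UMAMIT14 and to the pyruvate decarboxylase gene PDC1 (AT4G33070), each with r rounded to 0.999. SUS4 was closest to AT3G03270, PDC1 and AT3G05640 (r = 0.999 each), and SUS1 with SUS4 gave 0.999 as well. For SUS3 the nearest were NAC089, AT2G29670 and AT5G06220 (r = 0.998, 0.997 and 0.997), and for SUS5 the root hair gene RHD4, UBC20 and AT1G72250 (r = 0.989, 0.989 and 0.988). SUS6 (AT1G16820, SYP31 and AT3G56460, r = 0.954, 0.952 and 0.932) and SUS2 (AT5G10770, AT1G80880 and NRPD1A, r = 0.939, 0.892 and 0.877) had no such close partner. SUS5 ran opposite to SUS1 over the groups, with r = -0.92, and SUS6 showed r = -0.30 with SUS1 and 0.37 with SUS5.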

How the data were processed

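Whole-seedling RNA libraries were aligned with HISAT2 2.0.4 to TAIR10, and DESeq2 was used, per the submitters' processing notes; the counting tool is not stated there. The authors deposited expected counts per gene, together with FPKM and TPM values, in which the deposited TPM sum to a fixed total per library. Members were matched by locus, and members, pathway lists and marker lists were chosen with earlier results of these data known.

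Deposited expected counts were rounded to whole numbers (525 to 581 genes a library had fractions, no member did). Genes were kept by filterByExpr at a minimum count of 10 and scaled by TMM, with factors of 0.876 to 1.02 in hypoxic and 1.03 to 1.11 in normoxic libraries. One quasi-likelihood model of 8 group means was fitted in edgeR 4.0.16 (R 4.3.3), and p-values were adjusted by Benjamini-Hochberg over 20110 genes, with calls under 0.05. CPM are TMM-scaled. Levels and paralogue ratios used deposited TPM, the ratios with a pseudocount of 0.1. The test was tried on simulated counts first. All 6 members are named, as are at most 3 genes of each list that passed with the largest changes in Col, and the 3 genes most similar to each member. CINV1, UGP1, the uncalled root markers, ADH1 and PDC1 were added after their values were seen. Coding sequences were aligned with mafft 7.526, and coordinates and sequences are from TAIR10.1. Depth was 21150032 to 22645177 reads a library, and replicates differed by more than counting error. Alternatives were another scaling, DESeq2 1.42.0, no filter, a replicate block, the compared libraries alone, FPKM, another pseudocount, and each library left out.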

Additional observations from a re-analysis of the deposited data

How the results depend on the processing

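Among the values of the members, 642 were recomputed under other settings and 864 with 1 library left out. No called member changed sign, and no member was called between genotypes under any of these settings. SUS1 in Col stayed between 3.53 and 3.77 and SUS4 between 4.86 and 5.09 under other settings. SUS5 in Col lost its call without the filter (adjusted p = 0.0525), when the 2 compared groups were fitted alone (0.0974) and with the replicate block (0.0579). In vq1 SUS5 passed with scaling by library size only (0.0172), which moved the median of all genes in Col to -0.25, and when its 2 groups were fitted alone (0.0228). The change of the log2 ratio of SUS6 to SUS5 under hypoxia lay between 0.25 and 0.61 with 1 replicate number left out. Libraries of different groups with the same replicate number had a median correlation of 0.01 over 84 pairs. With different numbers it was -0.0016 over 168 pairs. A correlation over 0.1 was found in 27 and 34 of these pairs, and pairing within some groups was not tested. A replicate block called 8408 genes in Col, against 8410 without it. SUS2, at 8 to 30 reads a library, is where depth limits most.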
